A study of Mus musculus with 4 samples.

Results

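The nuclear genes of oxidative phosphorylation (OXPHOS) were examined in the RNA-Seq table of Lgr5+ and Lgr6+ cochlear progenitors. Members were the genes whose symbol begins with Nduf followed by a, b, c, s or v, with Uqcr, with Cox followed by 4 to 8, or with Atp5, together with *Sdha*, *Sdhb*, *Sdhc* and *Sdhd*. This rule does not use any measured value, and it found 92 of the 23997 genes listed. Of these, 36 encode complex I subunits, 4 complex II, 8 complex III, 18 complex IV, and 17 carry complex V names. The 17 include *Atp5s* and *Atp5sl*, listed in RefSeq as *Dmac2l* and *Dmac2*, which are not subunits of complex V. The rule also takes in 7 complex I assembly factors (*Ndufaf1* to *Ndufaf7*) and the pair *Ndufa4* and *Ndufa4l2*, which carry complex I names although NDUFA4 is known as a subunit of complex IV. Subunits encoded by mitochondrial DNA were not analysed here.

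The cells were EGFP+ cells sorted by flow cytometry from cochleae of C57BL/6 mice at postnatal day 3, without any treatment. Lgr5+ progenitors came from Lgr5-EGFP-IRES-creERT2 mice and Lgr6+ progenitors from Lgr6-EGFP-IRES-CreERT2 mice, so that in each line the EGFP reporter is driven from the receptor locus and cells were sorted on its fluorescence. The labels list 2 samples per population. According to the methods the RNA of each population was divided into fractions after extraction, and the number stated there is larger than 2. Replicates of this kind do not represent separate animals. The deposited table gives 1 combined FPKM (a fragment count divided by transcript length and by sequencing depth) per gene and population, so every value in the text is the authors' value for a population, no spread between replicates can be given and no difference was tested.

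OXPHOS takes place in the inner mitochondrial membrane. Complex I oxidizes NADH and complex II oxidizes succinate, both pass electrons through ubiquinone to complex III, cytochrome c carries them to complex IV, and complex IV reduces oxygen to water. Complexes I, III and IV pump protons, and complex V, the ATP synthase, uses the returning protons to make ATP. Most subunits are encoded in the nucleus and have to be made in proportion to each other and to those encoded in mitochondria. In the cochlea, hair cells and the ion-transporting epithelia are known for a high demand for ATP.

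Changes are given as log2(FPKM + 1) in Lgr6+ progenitors minus log2(FPKM + 1) in Lgr5+ progenitors, so positive values mean a higher level in Lgr6+ progenitors, and the added 1 makes the change of weakly expressed genes look smaller. Genes reaching an FPKM of 1 in either population were kept, 13436 genes in all, and a kept gene is described as past the limit when the populations differed by 1.5-fold or more on this scale. Summed over all genes, the FPKM came to 754163 for the Lgr5+ and 627932 for the Lgr6+ population, and the median change over kept genes was 0.035. The identity of the sort was checked on its own genes. *Sox2* had 139.6 against 54.8 FPKM (Lgr5+ against Lgr6+), *Lgr6* had 2.06 against 2.90, and *Lgr5* had 9.65 against 24.99, so *Lgr5* itself was listed higher in the Lgr6+ population. Of the 7 genes listed for this identity 5 were higher in Lgr5+ progenitors, with *Jag1* (108 against 59.2) and *Sox2* past the limit, and the median change was -0.50. Genes of other cell types also differed. Of the macrophage markers 6 of 7 were past the limit toward Lgr6+ progenitors, with a summed FPKM of 1.47 against 229, where the Lgr5+ population had 0 for *C1qb*, *C1qc*, *Csf1r* and *Tyrobp*. The corresponding numbers were 6 of 6 for endothelial markers (10.9 against 80.7, with *Kdr* at 0 in the Lgr5+ population), 3 of 5 for Schwann cell markers (73.7 against 262), 4 of 6 for mesenchymal markers (49.6 against 401) and 4 of 6 for hair cell markers (666 against 739.9). Of the 6 hair cell markers 5 were higher in Lgr6+ progenitors. The exception was *Pvalb*, with 477 against 408, which made up most of both hair cell sums. Of the neuronal markers 2 of 5 were past the limit toward Lgr6+ and 1 toward Lgr5+ progenitors (84.2 against 114). Erythroid markers went the other way, 4 of 6, with 629.8 against 108. The part of these other cells in the values that follow was not tested, and a different number of cells of a type cannot be told apart from a different amount of RNA per cell.

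OXPHOS genes were among the most strongly expressed genes of both populations. Their share of the FPKM summed over all genes was 6.90% in Lgr5+ and 7.80% in Lgr6+ progenitors, while their own summed FPKM was 52035 against 48998. Among the 200 genes with the highest FPKM, members numbered 27 in Lgr5+ and 31 in Lgr6+ progenitors. An FPKM of at least 100 was reached by 68 members in Lgr5+ and 69 in Lgr6+ progenitors, and an FPKM of at least 1000 by 20 and 17. The highest member of both was *Atp5e*, the epsilon subunit of the ATP synthase, with 2731 against 2130.5 FPKM, followed by the small complex III subunit *Uqcr11* with 2485 against 2015. The 3 members that were not kept were all tissue-restricted complex IV isoforms. *Cox6a2*, known from heart and skeletal muscle, and *Cox8c*, known from testis, were listed at 0 in both populations, and *Cox8b*, known from muscle and brown fat, had 0.629 in Lgr6+ progenitors and 0 in the others. The order of the members was much the same in both populations. Across the 89 kept members the log2(FPKM + 1) values of the populations had a Pearson r of 0.97, against 0.87 across all kept genes, a description over genes that are not independent replicates and that share the libraries.

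**Figure D1:**
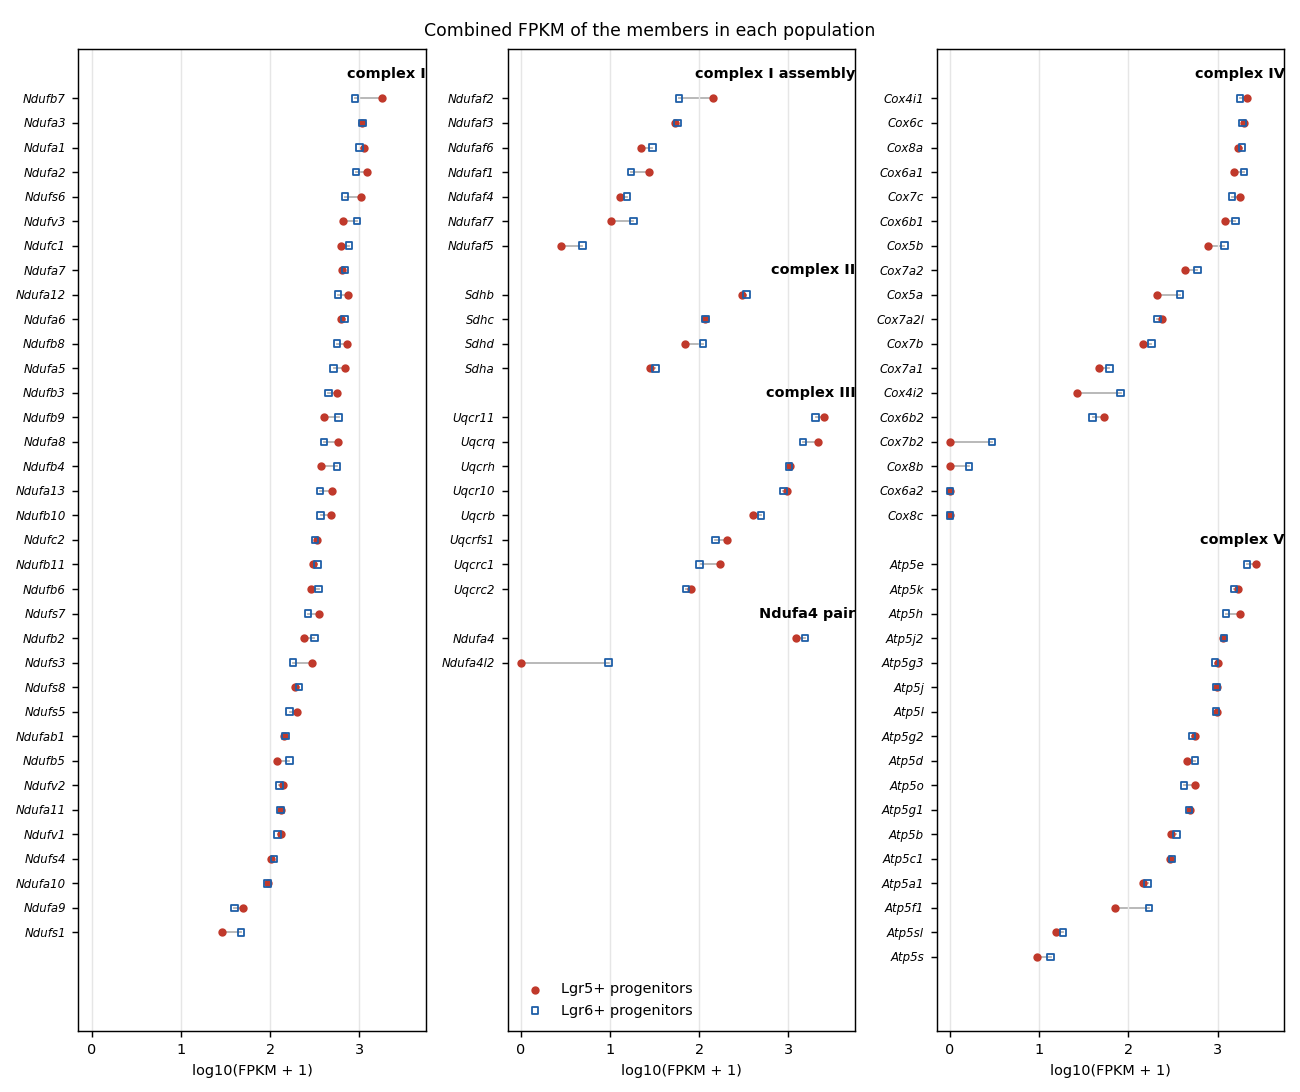
Level of the members as log10(FPKM + 1) in Lgr5+ progenitors (red circles) and Lgr6+ progenitors (blue squares), by complex and in order of mean level; each point is the authors' combined value, without an error bar, and a grey line joins the points of a gene. Most pairs of points nearly coincide, while *Ndufa4l2*, *Cox4i2*, *Cox7b2*, *Atp5f1*, *Ndufaf2* and *Ndufb7* lie furthest apart.

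Most members differed little between the populations. Of the 89 kept members, 12 were past the limit toward Lgr6+ progenitors and 6 toward Lgr5+ progenitors. These are 13.5% and 6.74% of the kept members, where 28.5% and 23.3% of all kept genes were past the limit in these directions, and 51.8% in either. At 2-fold the counts were 4 members toward Lgr6+ and 2 toward Lgr5+ progenitors, where 18.2% and 11.7% of all kept genes were past it, and 29.9% in either direction. The members had a median change of 0.041 with quartiles of -0.30 and 0.32, narrower than the -0.54 and 0.71 of all kept genes. Strong expression alone went with a smaller share past the limit, and at the highest levels the members' share was lower only toward Lgr5+ progenitors. Where either population reached an FPKM of 500, 10.3% of 39 members and 41.8% of 282 genes in all were past the limit. Toward Lgr5+ progenitors these were 2 members, 5.13%, and 105 genes, 37.2%. Toward Lgr6+ progenitors they were 2 members, 5.13%, and 13 genes, 4.61%. The median change at this level was -0.11 for the members and -0.44 for all genes.

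The direction of these small changes depended on how the populations were scaled to each other. When each population was scaled to the same summed FPKM, the median of all kept genes moved up by 0.24, and 23 members were past the limit toward Lgr6+ and 2 toward Lgr5+ progenitors, where all kept genes then stood at 37.8% and 16.99%. Quantile normalization gave 20 and 4, or 22.5% and 4.49% of the kept members, where 25.5% of all kept genes were past the limit in each direction. Scaling to a common upper quartile left the counts at 12 and 6, where all kept genes stood at 28.4% and 23.4%. Under each of the 4 rescalings, centring on the median gene included, 9 of the 12 members stayed past the limit toward Lgr6+ (among them *Atp5f1*, *Cox4i2*, *Cox5a* and *Sdhd*), and 2 of the 6 toward Lgr5+ progenitors (*Ndufaf2* and *Ndufb7*). Equal sums and quantile normalization raised the members' median from 0.041 to 0.31 and 0.27, and a common upper quartile left it at 0.039. Staying past the limit was thus easier toward Lgr6+, and the 9 of 12 and 2 of 6 do not compare the directions. The 9 include *Ndufa4l2* and *Cox7b2*, which were listed at 0 in Lgr5+ progenitors and kept through the Lgr6+ value alone. With an FPKM of at least 1 required in both populations the counts were 10 and 6, or 11.5% and 6.90%, against 21.4% and 22.5% of all such genes. Cufflinks can report several genes in 1 genomic interval, and for 4 of the 12, *Atp5f1*, *Cox4i2*, *Ndufa4l2* and *Ndufs1*, the interval in the table also held another gene. Without all members of this kind the counts were 8 and 6, or 10.7% and 8.0%, against 28.5% and 23.4% of all genes then kept.

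**Figure D2:**
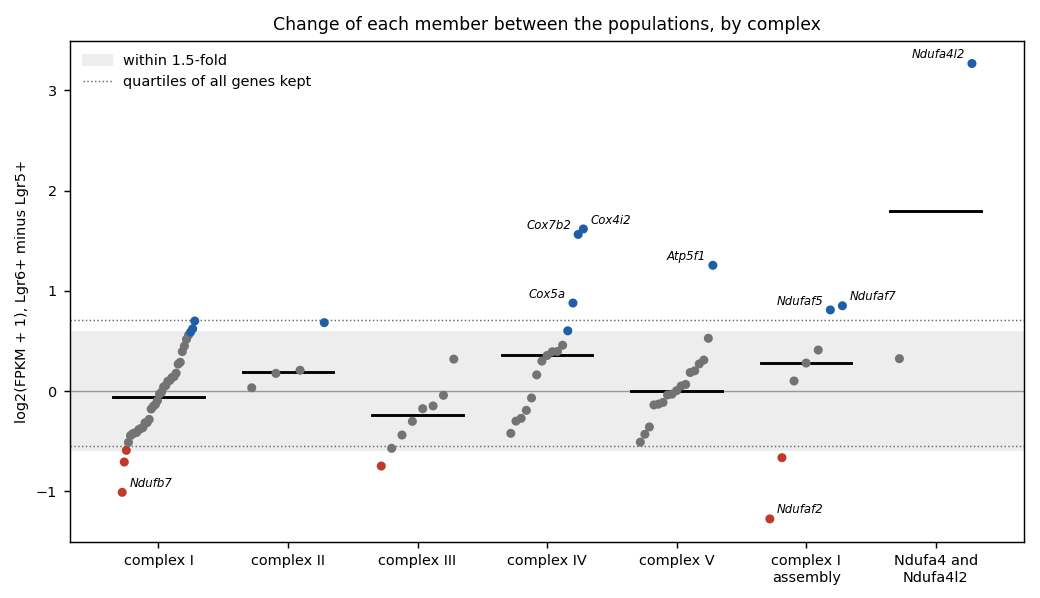
Change of each kept member, log2(FPKM + 1) in Lgr6+ minus Lgr5+ progenitors, by complex; blue and red points are past the 1.5-fold limit toward Lgr6+ and Lgr5+ progenitors, grey points are within it, black bars are medians, the grey band is the range within the limit and dotted lines are the quartiles of all kept genes (-0.54 and 0.71). Complex III points lie mostly below 0 and complex IV points mostly above, with medians of -0.24 and 0.35.

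Complex I is the largest complex of the chain, and its 36 subunit genes were kept without exception. Their median change was -0.063, 16 were higher in Lgr6+ and 20 higher in Lgr5+ progenitors, and 3 were past the limit in each direction. These are 8.33% in each direction, where 28.5% of all kept genes were past it toward Lgr6+ and 23.3% toward Lgr5+ progenitors. The 7 core subunits, which hold the flavin and the iron-sulfur clusters or form the ubiquinone site, had FPKM values from 28.1 (*Ndufs1*) to 352 (*Ndufs7*) in Lgr5+ progenitors, with a median of 140.04. The 29 accessory subunits had a median of 493 and ran up to 1793 for *Ndufb7*.

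Core subunits differed in both directions. *Ndufs1*, the largest core subunit (mm10 chr1:63114471-63176822), had FPKM values of 28.1 against 46.2 (Lgr5+ against Lgr6+ progenitors), a change of 0.70. *Ndufs3*, a core subunit of the peripheral arm, had 294 against 179 and went the opposite way, with -0.71. *Ndufv1*, the NADH-binding subunit, had 132 against 120.2 and a change of -0.13. *Ndufv2* had 140.04 against 126 with -0.15, and *Ndufs8* had 191 against 209 with 0.13. *Ndufs7* had 352 against 265, a change of -0.41, in an interval of the table that it shares with 47 other genes, *Atp5d* among them.

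Among the accessory subunits, *Ndufb7*, a membrane-arm subunit of the intermembrane space side, differed most. It lies at chr8:83566758-83571623 and had 1793 against 889.5 FPKM, 2.02 times higher in Lgr5+ progenitors and a change of -1.01. *Ndufs6*, a small zinc-binding subunit of the peripheral arm, had 1036 against 687, a change of -0.59, just past the limit of 0.585. *Ndufb4* had 372 against 559.8, a change of 0.59 that was just past it toward Lgr6+ progenitors, while *Ndufb9* (398 against 586, 0.56) and *Ndufv3* (658 against 941, 0.52) fell just short. At the other end *Ndufa11* had 131 against 130.4 and a change of -0.0099, and *Ndufa10* had 94.8 against 92.8 with -0.03. *Ndufab1*, the mitochondrial acyl carrier protein that is also a subunit, had 141 against 147 with 0.054. The lowest accessory subunit was *Ndufa9*, with 48.4 against 38.7.

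The 7 assembly factors, which build the complex without staying in it, were expressed far below the subunits, with a median FPKM of 21.5 against 362 for subunits in Lgr5+ progenitors. Past the limit were 2 toward Lgr6+ and 2 toward Lgr5+ progenitors, 28.6% in each direction, near the 28.5% and 23.3% of all kept genes. *Ndufaf2*, a late-acting assembly factor related to the subunit NDUFA12, lies at chr13:108052589-108158625 and had 142 against 58.1, which was 2.44 times higher in Lgr5+ progenitors. *Ndufaf1*, which acts on the membrane arm, had 26.2 against 16.2, a change of -0.66. *Ndufaf7*, a methyltransferase, had 9.12 against 17.2, a change of 0.85, and *Ndufaf5*, a hydroxylase for NDUFS7, had 1.79 against 3.89, a change of 0.81 at levels where the added 1 weighs on the value. *Ndufaf3*, *Ndufaf4* and *Ndufaf6* were within the limit, with changes of 0.10, 0.28 and 0.41.

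Complex II, succinate dehydrogenase, also belongs to the citric acid cycle and is encoded entirely in the nucleus. All 4 subunits were higher in Lgr6+ progenitors, with a median change of 0.19, and 1 was past the limit. *Sdhd*, a membrane anchor of the complex (chr9:50596340-50603849), had FPKM values of 67.4 against 109, a change of 0.68. The other anchor, *Sdhc*, had 114 against 116, a change of 0.032. *Sdha*, the flavoprotein, had 26.9 against 31.2 with a change of 0.21, and *Sdhb*, the iron-sulfur subunit, had 298 against 337 with 0.18. The flavoprotein gene was thus the lowest and the iron-sulfur gene the highest in both populations, although the subunits are present once each in the complex. Of complexes I to V it was the smallest by level, with a summed FPKM of 506 in Lgr5+ and 593 in Lgr6+ progenitors.

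Complex III passes electrons from ubiquinol to cytochrome c. Of its 8 members 7 were on the Lgr5+ side, with a median change of -0.24. The rule misses *Cyc1*, its cytochrome c1 subunit, which was higher in Lgr6+ progenitors (144 against 194, a change of 0.43) and is not in these values. The summed FPKM was 7516 against 6178. Past the limit was 1 member, 12.5%, where 23.3% of all kept genes were past it toward Lgr5+ progenitors. *Uqcrc1*, a large core protein of the complex (chr9:108936648-108949641), had 169 against 100.03, 1.69 times higher in Lgr5+ progenitors and the only member of complex III past the limit. Its partner *Uqcrc2* had 79.2 against 70.02, a change of -0.18. The Rieske iron-sulfur protein gene *Uqcrfs1* had 204 against 150.4, a change of -0.44. Of the small subunits, *Uqcrq* had 2167 against 1458 and a change of -0.57, just within the limit, *Uqcr11* had -0.30, *Uqcr10* -0.15 and *Uqcrh* -0.042. *Uqcrb* was the exception, with 397 against 495 and a change of 0.32. With equal sums the median of complex III became 0.024, which was -0.26 relative to the median of all genes, and complex III as a share of all FPKM was 0.997% in Lgr5+ and 0.984% in Lgr6+ progenitors.

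Complex IV, cytochrome c oxidase, leaned the other way. Its 15 kept members had a median change of 0.35, with 10 higher in Lgr6+ progenitors, 4 of them past the limit, and 5 higher in Lgr5+ progenitors, none of them past it. The 4 past the limit are 26.7% of the kept members of complex IV, near the 28.5% of all kept genes past it toward Lgr6+. Toward Lgr5+ progenitors 23.3% of all kept genes were past it. The 10 broadly expressed subunits had a median change of 0.33. *Cox5a*, which with *Cox4i1* belongs to the first nuclear subunits to join the complex, lies at chr9:57521232-57532426 and had an FPKM of 206 against 379, 1.84 times higher in Lgr6+ progenitors. *Cox5b*, a zinc-binding subunit, had 784 against 1189, a change of 0.60. *Cox7a2* (433 against 595), *Cox6b1* (1206 against 1583), *Cox6a1* (1546 against 1976), *Cox7b* (146 against 179.9) and *Cox8a* (1674 against 1872) were higher in Lgr6+ progenitors within the limit. *Cox4i1* (2154 against 1783), *Cox7c* (1782 against 1448) and *Cox6c* (1986 against 1893) were lower in Lgr6+ progenitors, also within it.

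Several complex IV subunits exist as isoforms of separate genes, of which one is found in most tissues and the others are confined to a few. In each such set the broadly expressed gene made up most of the summed FPKM of the set in both populations. *Cox4i1* accounted for 98.8% of *Cox4i1* and *Cox4i2* in Lgr5+ and 95.7% in Lgr6+ progenitors. *Cox4i2*, an isoform known from lung and from pericytes and tied to low oxygen, had 25.7 against 80.9, 3.15 times higher in Lgr6+ progenitors. *Cox6b2*, known from testis, had 52.2 against 38.7 and 4.15% against 2.39% of its set. *Cox7a1*, the heart and muscle isoform, had 45.6 against 60.3, and *Cox7a2l*, a factor for joining complex III to complex IV, had 240.2 against 210.1, while *Cox7a2* made up 60.2% of the 3 genes in Lgr5+ and 68.7% in Lgr6+ progenitors. *Cox7b2* was listed at 0 in Lgr5+ and had 1.95 in Lgr6+ progenitors.

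*Ndufa4* had 1228 against 1536 FPKM and a change of 0.32. Its relative *Ndufa4l2*, a gene induced by hypoxia-inducible factor and known from pericytes, had 8.62 in Lgr6+ progenitors and was listed at 0 in the Lgr5+ population, so no ratio is given, and it was 0.558% of the pair in Lgr6+ progenitors. Pericyte markers, a list added after these values were seen, had a summed FPKM of 12.6 against 14.6, with 2 of 8 past the limit toward Lgr6+ progenitors. *Rgs5* was listed at 0 in Lgr5+ and had 2.64 in Lgr6+ progenitors, *Higd1b* likewise 0 and 1.15, *Pdgfrb* had 8.25 against 5.69 and *Acta2* was listed at 0 in both. Whether such cells account for *Cox4i2* and *Ndufa4l2* was not tested. Both genes also share their interval in the table with a neighbour, *Cox4i2* with *Bcl2l1* (51.5 against 34.9) and *Ndufa4l2* with *Shmt2* (8.90 against 9.95), and neither neighbour was past the limit.

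Complex V, the ATP synthase, was close to balanced, with a median change of 0.0039 over 17 members, 9 of them higher in Lgr6+ and 8 in Lgr5+ progenitors. The 9 include *Atp5s* and *Atp5sl*, which are counted here by name only. The catalytic F1 part was represented by *Atp5a1* (143 against 163, a change of 0.18), *Atp5b* (299.6 against 345, 0.20), *Atp5c1* (296 against 309, 0.066), *Atp5d* (451 against 559, 0.31) and *Atp5e* (2731 against 2130.5, -0.36). The small epsilon subunit was therefore the only F1 gene lower in Lgr6+ progenitors, and none of the 5 was past the limit. Past the limit was 1 of the 17 members, 5.88%, where 28.5% of all kept genes were past it toward Lgr6+. The single member past it was *Atp5f1*, the b subunit of the peripheral stalk that holds F1 still against the rotor (chr3:105942863-105969760). It had FPKM values of 70.4 against 169, 2.41 times higher in Lgr6+ progenitors. *Wdr77*, with which it shares its interval in the table, had 15.1 against 15.1.

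The other parts of the stalk did not follow *Atp5f1*. *Atp5h*, the d subunit, had 1769.7 against 1243 and a change of -0.51, *Atp5o*, the oligomycin sensitivity-conferring protein, had 564 against 418 with -0.43, and *Atp5j*, coupling factor 6, had 974 against 976 with 0.0039. *Atp5f1* was the lowest of the membrane and stalk genes in both populations. The proton-conducting c ring is encoded by 3 genes, *Atp5g1*, *Atp5g2* and *Atp5g3*, whose proteins differ in their import sequences but give the same mature subunit. They kept nearly the same proportions, with 23.6%, 27.1% and 49.3% of their sum in Lgr5+ and 24.8%, 26.9% and 48.3% in Lgr6+ progenitors, and their summed FPKM was 2072 against 1931. The membrane subunits *Atp5k* (1689 against 1534), *Atp5l* (983 against 956) and *Atp5j2* (1139 against 1179) had changes of -0.14, -0.039 and 0.05. *Atp5s* and *Atp5sl*, which are not subunits of the enzyme, were the lowest members of this group, with 8.33 against 12.4 and 14.4 against 17.6.

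Set side by side, the complexes had median changes of -0.24 (III), -0.063 (I), 0.0039 (V), 0.19 (II) and 0.35 (IV), each within the quartiles of all kept genes, -0.54 to 0.71. This order was the same with another pseudocount, with other filters on low values and under all scalings, and complexes I and V changed places only when members sharing an interval with another gene were left out. The sign depended on the scaling. With equal sums all 5 medians were above 0, from 0.024 to 0.62, and relative to the median of all genes they ran from -0.26 to 0.34, as against -0.27 to 0.32 for the FPKM as deposited. Among genes that reached an FPKM of 50 in either population, whose median was -0.21, complex III stood at -0.025 and complex IV at 0.54 relative to it, so that complex III lay close to other genes of such levels. After quantile normalization the 5 medians ran from 0.062 to 0.66, with the median of all genes at -0.0087, so that complex III then lay above it. Without replicates it is not known whether these gaps between complexes exceed the spread between samples.

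**Figure D3:**
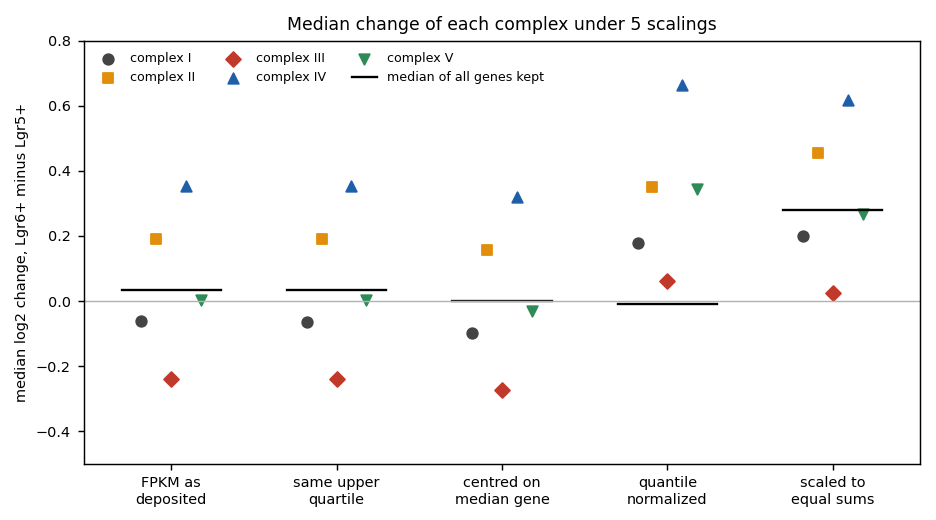
Median change of each complex, log2(FPKM + 1) in Lgr6+ minus Lgr5+ progenitors, for the FPKM as deposited and 4 rescalings; symbols are complexes, black lines are the median of all kept genes, and there are no error bars because each population has 1 value per gene. Complex III is lowest and complex IV highest in every column, while the position relative to 0 moves with the scaling.

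The share of each complex in the summed FPKM of a population does not depend on scaling by a constant. Complex I was 2.26% in Lgr5+ and 2.43% in Lgr6+ progenitors, complex IV 1.63% and 2.12%, and complex V 1.75% and 1.90%. A higher share is not a higher level, since the sum over all genes was lower in Lgr6+ progenitors (754163 against 627932). The summed FPKM as deposited was 17037 against 15252 for complex I and 13203 against 11943 for complex V. For complex IV it was 12280 against 13291. Complex II made up 0.0671% and 0.0945%. The cytoplasmic ribosomal protein genes were 20.5% in Lgr5+ and 14.7% in Lgr6+ progenitors.

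Other gene groups of similar function or level were compared. Of 79 kept cytoplasmic ribosomal protein genes, which like the members are strongly expressed, 48 were past the limit toward Lgr5+ and 1 toward Lgr6+ progenitors, with a median change of -0.70. These are 60.8% and 1.27%, where 23.3% and 28.5% of all kept genes were past it in these directions. Mitochondrial ribosomal protein genes, which are needed to translate the mitochondrially encoded subunits, had 18 and 11 of 77 past it and a median of -0.13. Their shares were 23.4% and 14.3%, the former near that of all kept genes. Of 14 citric acid cycle genes 3 and 4 were past it, 21.4% and 28.6%, near the shares of all kept genes. Among them were *Sucla2* (17.4 against 66.8) and *Idh3b* (58.6 against 125) toward Lgr6+ and *Fh1* (39.3 against 23.4) toward Lgr5+ progenitors. Glycolysis genes had 1 and 3 of 17, or 5.88% and 17.6%, with a median of -0.081. For outer membrane import and pore genes the numbers were 2 and 0 of 10, with a median of -0.33. None of these gaps between lists was tested.

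**Figure D4:**
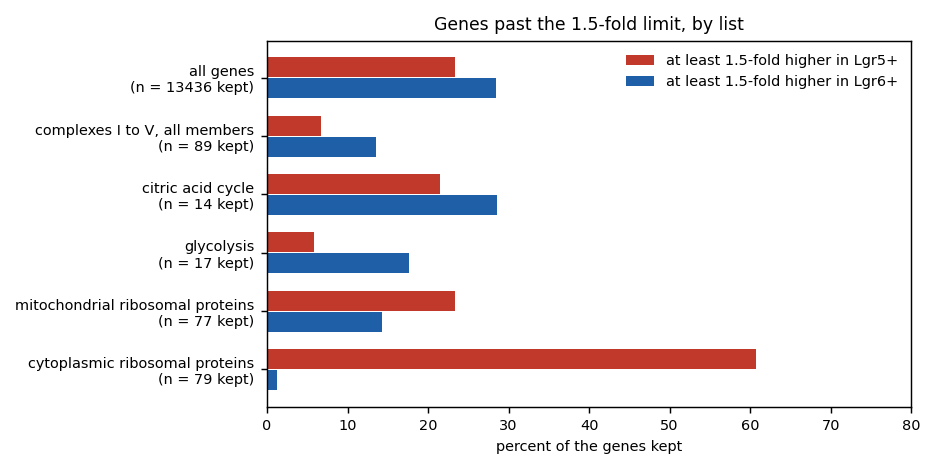
Percent of the kept genes of each list that were at least 1.5-fold higher in Lgr5+ (red) or Lgr6+ progenitors (blue), for all genes, the OXPHOS members and 4 other lists, with the number of kept genes beside each name. The OXPHOS bars, 6.74% and 13.5%, are shorter than those of all genes, 23.3% and 28.5%, and the red bar of the cytoplasmic ribosomal proteins reaches 60.8%.

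Genes that build or serve the complexes without being members were also examined. Of 23 complex IV assembly factors 7 were past the limit toward Lgr6+ and 2 toward Lgr5+ progenitors, 30.4% and 8.70%, where 28.5% and 23.3% of all kept genes were past it. They included *Cox19* (81.4 against 133) and *Sco2* (11.2 against 21.9), which serve copper delivery, *Cox18* (4.76 against 12.3), *Cox15* (1.56 against 3.36), *Cmc2* (8.71 against 19.1), *Coa4* (0 against 4.01) and *Taco1* (0.134 against 1.25) on the Lgr6+ side, and *Cox10* (a change of -0.84), which makes heme o, and *Pet117* (48.8 against 28.9) on the Lgr5+ side. *Cox17*, the copper chaperone, was the highest of them with 873 against 734 and was within the limit. For complex II, *Sdhaf1* (44.1 against 73.3) and *Sdhaf2* (12.8 against 8.19) were past it in opposite directions. None of the 4 kept complex III factors and none of the 4 complex V factors was past it, the latter including *Atpif1*, the inhibitor of the ATP synthase, with 1979 against 1648.

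Among electron carriers, *Cycs*, cytochrome c itself, had 74.3 against 113 and a change of 0.60, and *Cyc1*, the cytochrome c1 subunit of complex III that the rule does not match, had 144 against 194 with 0.43. Of the genes for electron transfer from flavoproteins, *Etfb* (611 against 292) and *Etfdh* (2.38 against 13.3) differed more and in opposite directions. *Etfa* differed less, with 78.1 against 84.2. Of the exchange carriers, *Slc25a4*, *Slc25a5* and *Slc25a3* were within the limit with changes of -0.43, -0.22 and -0.015, *Ucp2* had 22.4 against 41.7, and *Slc25a31* had 1.23 in Lgr5+ progenitors and was listed at 0 in Lgr6+ progenitors. Regulators of mitochondrial genes were expressed at low levels, and 4 of 11 were past the limit toward Lgr6+ (*Ppargc1b*, 1.33 against 10.9; *Polrmt*, 4.62 against 12.7; *Tfb1m*, 4.63 against 10.1; *Nrf1*, 5.23 against 9.30) and 3 toward Lgr5+ progenitors (*Pprc1*, 10.5 against 1.38; *Esrra*, 15.8 against 6.999; *Yy1*, 31.97 against 20.2). These are 36.4% and 27.3% of a short list, near the shares of all kept genes. *Ppargc1a* was below the filter in both, with 0.303 against 0.753, and *Tfam* had 10.2 against 7.71.

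Among the subunits, shorter transcripts went with higher levels. Over the 80 kept subunits and associated proteins of complexes I to V, the length of the longest annotated transcript and log2(FPKM + 1) had a Spearman rho of -0.55 in Lgr5+ and -0.57 in Lgr6+ progenitors, against -0.27 and -0.31 over all 12055 kept genes with a length. The median length was 1540 bases for core and 875 bases for accessory subunits of complex I. Length had little to do with the change between populations, with a rho of 0.097 for the subunits and -0.001 for all kept genes. These are descriptions over genes of the same libraries, and FPKM already divides by length.

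Nuclear OXPHOS genes are known as targets of the transcription factors NRF1, GABPA (an ETS factor) and YY1, so their promoters were searched for 1 motif of each on both strands, CCGGAAG for ETS factors, AAGATGGC for YY1, and for NRF1 the palindrome that stands in capitals in the NRF1 windows printed further on. The ETS and YY1 motifs can share the letters AAG. The promoters were those of RefSeq on GRCm38.p6, from 250 bases before to 50 bases after an annotated start, and 76 members had one. The NRF1 motif was found for 7 members, 9.21%, against 1.07% of all 27025 genes with a promoter and 2.27% of those kept here. For YY1 the shares were 14.5%, 3.19% and 5.15%, and for the ETS motif 22.4%, 9.93% and 18.96%. YY1 motifs were seen in 7 of 32 complex I and 4 of 16 complex V genes with a promoter. None was seen for complexes II, III and IV, where only 3, 5 and 13 genes had a promoter, so this absence rests on few genes. Members past the limit and within it held the motifs in the following shares, 28.6% against 21.3% for ETS, 14.3% against 14.8% for YY1 and 14.3% against 8.20% for NRF1, with 14 and 61 genes. A match is a run of letters and says nothing about binding.

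The 120 bases before the start are shown 5′ to 3′ for 4 members with an NRF1 motif there, all within the limit, to show the motif in members that barely differed. Of the other members with this motif, *Uqcrc1* and *Ndufaf5* were past the limit, with changes of -0.75 and 0.81, and *Cox6a1* was within it. The windows are from RefSeq on GRCm38.p6.
Atp5g2, chr15:102671048-102671167, minus strand: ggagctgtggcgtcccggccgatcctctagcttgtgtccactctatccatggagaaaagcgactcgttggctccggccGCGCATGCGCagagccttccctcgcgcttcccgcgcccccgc
Atp5k, chr5:108434400-108434519, minus strand: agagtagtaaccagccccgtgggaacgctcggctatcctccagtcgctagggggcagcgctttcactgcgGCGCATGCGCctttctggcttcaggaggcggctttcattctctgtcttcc
Ndufa11, chr17:56717642-56717761, plus strand: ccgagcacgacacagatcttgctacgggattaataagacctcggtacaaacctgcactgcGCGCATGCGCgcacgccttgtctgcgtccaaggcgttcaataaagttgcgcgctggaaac
Ndufaf4, chr4:24897963-24898082, plus strand: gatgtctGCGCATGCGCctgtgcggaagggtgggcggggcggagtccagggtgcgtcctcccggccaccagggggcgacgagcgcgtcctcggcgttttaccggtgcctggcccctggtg
Capitals mark the motif. *Atp5g2* and *Atp5k* encode membrane subunits of complex V, *Ndufa11* a membrane-arm subunit of complex I and *Ndufaf4* one of its assembly factors, and their changes were -0.11, -0.14, -0.0099 and 0.28.

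The same window is shown for 3 members past the limit, chosen to show both directions, with an ETS motif in capitals on either strand. The other member past the limit with this motif was *Ndufaf1*, with a change of -0.66.
Ndufb7, chr8:83566638-83566757, plus strand: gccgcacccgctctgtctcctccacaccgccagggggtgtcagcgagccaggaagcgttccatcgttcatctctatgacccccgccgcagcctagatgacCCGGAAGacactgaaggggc
Ndufs3, chr2:90904722-90904841, minus strand: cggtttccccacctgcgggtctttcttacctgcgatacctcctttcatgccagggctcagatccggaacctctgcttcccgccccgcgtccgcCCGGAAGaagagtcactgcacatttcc
Sdhd, chr9:50603850-50603969, minus strand: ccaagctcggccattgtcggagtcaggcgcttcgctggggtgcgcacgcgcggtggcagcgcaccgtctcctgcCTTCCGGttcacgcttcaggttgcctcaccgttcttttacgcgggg
*Ndufb7* and *Ndufs3* were higher in Lgr5+ and *Sdhd* in Lgr6+ progenitors, with changes of -1.01, -0.71 and 0.68. *Gabpa*, the ETS factor named for these genes, had 7.53 against 9.93 FPKM.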

How the data were processed

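RNA-Seq libraries of sorted Lgr5+ and Lgr6+ progenitors were made by the authors with a low-input SMART-Seq kit and sequenced as paired ends. Per the labels and the methods, the authors trimmed reads with Trimmomatic, mapped them with TopHat, annotated genes by RefGene and calculated FPKM with Cufflinks, and versions are not given in the sources used here. The FPKM values that the authors deposited are 1 combined value per gene and population. The submitters' notes name mm10 and the article's text mm9, and gene intervals of all 92 members overlapped the RefSeq gene on GRCm38.p6, 89 matched by symbol and 3 by synonym. The table's starts count from 0, and 1 was added here. An interval can span several genes that Cufflinks handled together, which holds for 15 members. Whether counting used strand and how reads from near-identical copies were counted are not given, so genes with neighbours or processed pseudogenes are uncertain. The table's fold change, p and q columns hold the authors' own comparison and were not used.

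Changes are on the log2(FPKM + 1) scale, with a pseudocount of 1 and an FPKM of at least 1 in either population. With 1 value per population no test was made, and no p-value is given. The members and gene lists were chosen with earlier results of these data known. Genes were named if past the limit, at the extremes of a complex or role, isoforms, complex II subunits or listed at 0; further members and listed genes with no extreme value were named after their values were seen, to complete a complex. Members within the limit that the rule did not name are given by counts and medians. A member is not reported here by name, but is counted in all totals, and is left out of the plot of levels. Transcript lengths are those of GENCODE M1. The table holds no counts, so counting error is not known. The alternatives were another pseudocount, plain ratios, other filters and other scalings, and, chosen after seeing the data, leaving out members whose interval holds another gene. Scripts were tested on simulated data and ran with matplotlib 3.10.9 for plots, scipy 1.17.1 for correlations, and pandas 2.3.3 with numpy 2.4.6 for the rest (Python 3.11.15).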

Additional observations from a re-analysis of the deposited data

How the results depend on the processing

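No paired analysis was possible because the table holds 1 combined value per population and its columns carry no replicate number, and leaving out replicates was not possible for the same reason. A median or a log2 ratio of summed FPKM was taken to have moved when it changed by 0.1 or more, and a count when it changed by over 1.5 times. Of 88 values under alternatives, 67 stayed and 21 moved. With equal sums, medians became 0.20 (complex I), 0.45 (II), 0.024 (III), 0.62 (IV) and 0.27 (V), and the log2 ratios of summed FPKM, Lgr6+ over Lgr5+, became 0.10 (from -0.16), 0.49 (from 0.23), -0.0185 (from -0.28), 0.38 (from 0.11) and 0.12 (from -0.14) in this order. The counts of members past the limit were then 23 toward Lgr6+ and 2 toward Lgr5+. After quantile normalization the medians were 0.18, 0.35, 0.062, 0.66 and 0.34, with 20 members toward Lgr6+. These shifts follow from the scaling itself. At an FPKM of at least 50 in either population 7 members were past the limit toward Lgr6+ and 5 toward Lgr5+, since fewer genes were kept. These are 9.09% and 6.49% of the members then kept, where 14.9% and 29.1% of all such genes were past it. At 2-fold the counts were 4 and 2. Precision is limited by the single value per population.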
